A study of Homo sapiens with 9 samples.

Results

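The genes described here are 46 liver plasma protein genes. Of these, 42 encode proteins that hepatocytes secrete into blood, and 4 encode enzymes of the liver cell itself. They were taken as a fixed list of symbols in GENCODE release 29 and make up 46 of the 19922 protein-coding genes on the assembled chromosomes, or 0.231%. The list was chosen by gene function and by the exonic loci counted on such genes in these same data, so the numbers of loci below are descriptions and carry no test. By role the genes fall into 5 apolipoproteins, 15 acute phase genes (with related protease inhibitors), 9 coagulation genes, 5 complement genes, 8 transport genes and 4 metabolic enzymes.

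The series holds 9 small RNA libraries of MDA-LM2, human breast cancer cells selected in mice from MDA-MB-231 for strong spread to the lung. By their labels, 2 libraries each come from knockdown of DCGR8 (so spelled), DROSHA and TARBP2, 1 from knockdown of DICER and 2 from control cells. Knockdown was by siRNA and control cells were given a control siRNA, which the labels do not state. The values analysed come from 1 list for the whole series and not from single libraries. It holds 108742 loci on hg38 and is named for the TCGA breast cancer cohort and the peak caller Piranha. The samples that entered the list were not given in the sources used here. A locus is a stretch of 1 strand on which small RNA reads pile up. No library, depth or tumour can be read from the list, because the score is 1 in every row. There are no replicates. Each interval is at the 95% level by the exact Clopper-Pearson method, which covers error from counting and no other.

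Hepatocytes supply most of the protein of blood plasma. In the acute phase response, interleukin-6 and interleukin-1 from immune cells act on hepatocytes, which then raise secretion of C-reactive protein, serum amyloid A, fibrinogen, haptoglobin and other proteins. Several of these genes, among them C3, CFB, A2M, CP, SERPINA1 and SERPINA3, are also transcribed in macrophages, fibroblasts or epithelia, whereas CPS1, TAT, CYP3A4 and CYP2E1 are best known as hepatocyte enzymes. In bulk tissue, RNA brought in by blood or by another cell type and RNA made by the tumour cells cannot be told apart.

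Loci lay on the exons of nearly all of these genes. Of 46, 43 had at least 1 same-strand locus (93.5%, interval 82.1 to 98.6), against 35.7% of all protein-coding genes. At least 2 loci were found on 42 of them, against 14.3% of all protein-coding genes, and at least 5 on 32, against 2.9%. Together they held 381 of the 14648 exonic loci of protein-coding genes (2.6%). The median was 6 loci per gene, 2.04 loci per kb of exon and 18.2% of exonic bases covered, where the median over all protein-coding genes was 0 for each measure. These medians depend on how loci are counted. They were 1.27 loci per kb and 10.4% with loci wholly inside exons, and 1.11 loci per kb and 5.07% with loci of at most 50 bases alone. Over the whole length of their exons, the liver plasma protein genes had 1.83 loci per kb and 18.9% of bases covered, against 0.147 loci per kb and 0.873% for all protein-coding genes.

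Counting loci of at most 50 bases alone, 40 genes had a locus, against 34.2% of all protein-coding genes. Without APOB, the gene with most loci, 42 of 45 genes had a locus and the median was 1.96 loci per kb. The remaining 3 genes had no exonic locus. These were HRG, which encodes histidine-rich glycoprotein, TTR, which encodes the thyroxine and retinol carrier transthyretin, and CYP3A4, which encodes a main drug-metabolising cytochrome. HRG and CYP3A4 had 0 loci on either strand over their whole span, and TTR had 1 locus in an intron.

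**Figure D1:**
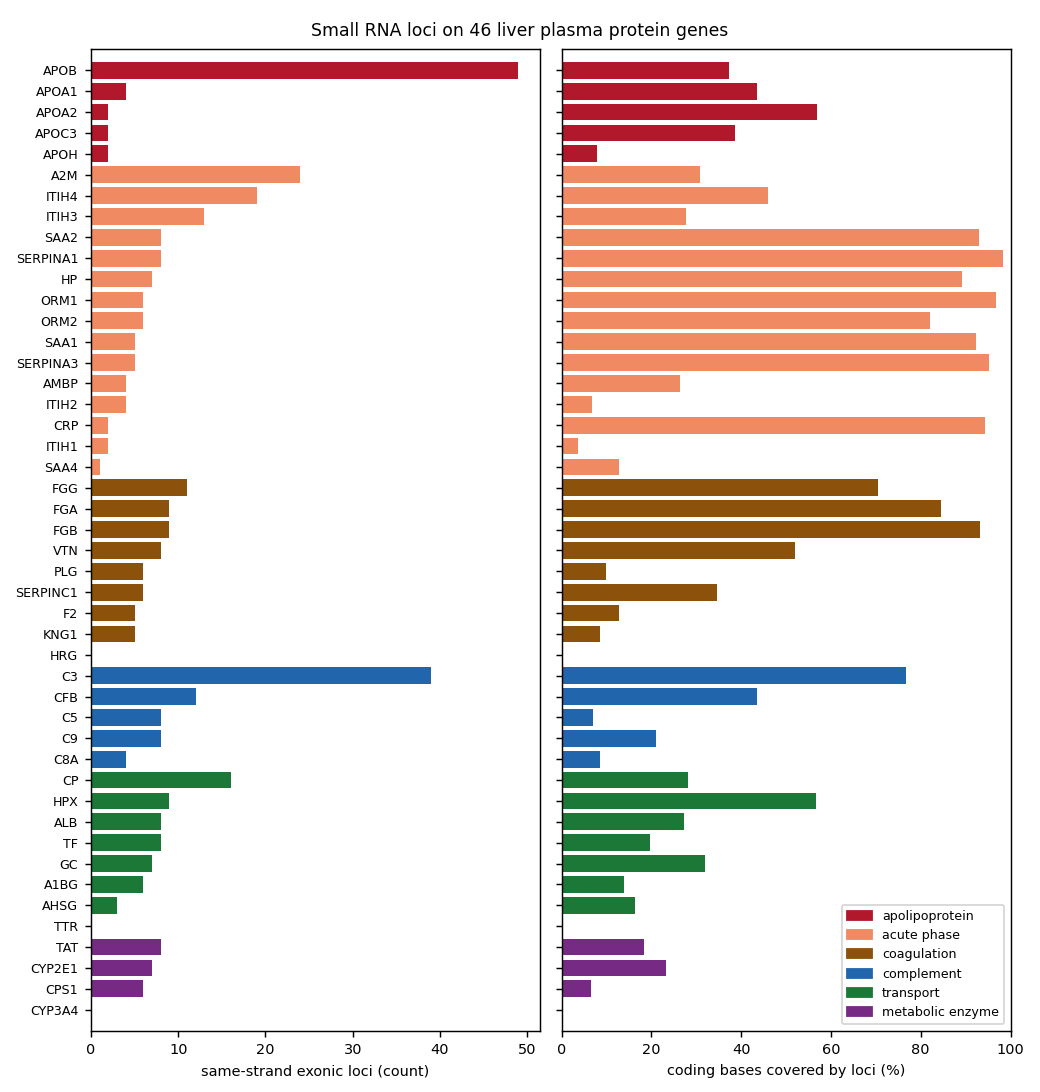
Same-strand exonic loci (left, count) and share of coding bases covered by loci (right, percent) for each of the 46 genes, coloured by group and ordered by loci within the group. APOB with 49 and C3 with 39 lead by count, while SERPINA1 (98.4%), ORM1 (96.7%) and SERPINA3 (95.2%) lead by covered coding bases, and HRG, TTR and CYP3A4 are empty in both panels.

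Exon length bears on the chance that a gene has a locus, so the genes were also set beside genes of like length. The list was chosen in part by such loci, so its high shares follow in part from that choice. The effect of length in it was not tested. All 6 with under 1 kb of exon had a locus, against 15.3% of all protein-coding genes of that size. Among these, SAA4 had 1 locus, which also lies on another annotated gene. From 1 to 2 kb the count was 3 of 3, against 18.2%. From 2 to 4 kb the count was 15 of 17, against 30.1% of all protein-coding genes, and from 4 to 8 kb it was 14 of 15, against 40.5%. Of the class with 8 kb or more, 5 of 5 had a locus, against 54.7%. Among all protein-coding genes the share thus rises with length, while in the liver plasma protein genes the shortest class was complete.

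**Figure D2:**
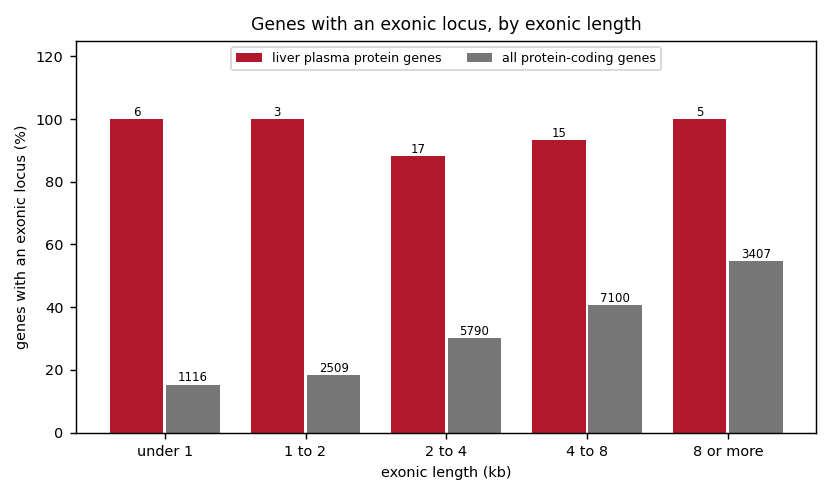
Share of genes with a same-strand exonic locus (percent) by exonic length (kb), for the liver plasma protein genes and for all protein-coding genes, with the number of genes above each bar. The share climbs from 15.3% to 54.7% over the classes of all protein-coding genes and lies between 88.2% and 100% in each class of the liver plasma protein genes.

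The number of loci and the bases they cover are different measures, because neighbouring bins are joined into 1 wide locus. Across the 46 genes the rank correlation of loci per kb with covered share was 0.764, given as a description, since both come from the same loci. CRP, which encodes C-reactive protein, had 2 loci (0.993 per kb), and these covered 97.5% of its exonic bases. ORM2 had 6 loci at 7.89 per kb, covering 78.8%. By loci per kb, ORM2 ranked 2nd, ORM1 3rd and SAA1 5th of the 19922 genes, and CRP ranked 800th. ORM1 and ORM2 share sequence with each other, and SAA1 with SAA2, so their ranks rest in part on loci whose gene is uncertain. By covered share, CRP ranked 14th, behind the 13 mitochondrial genes. Among nuclear protein-coding genes, 14 had at least 50% of exonic bases covered, and 6 of the 14 were liver plasma protein genes: CRP, ORM1, ORM2, SAA1, FGA and FGB.

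**Figure D3:**
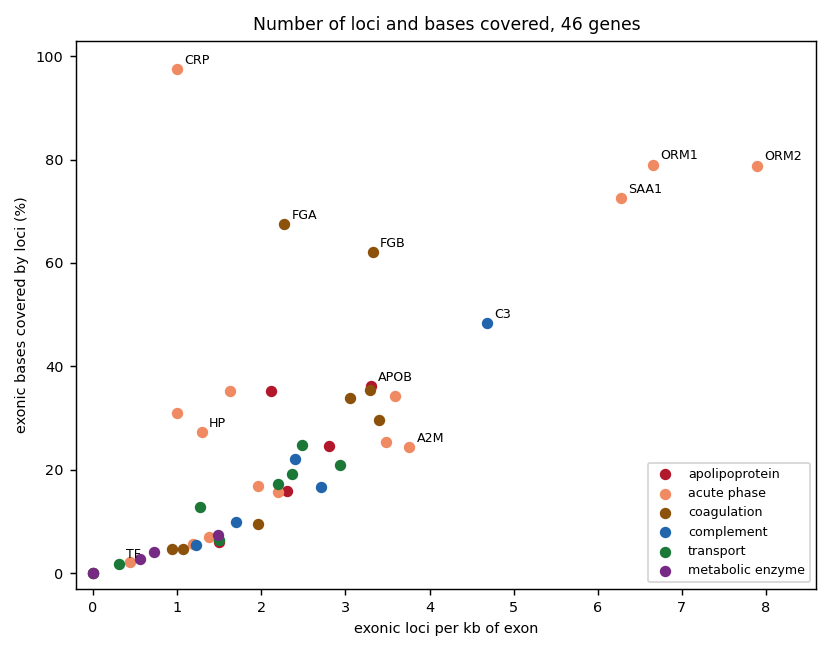
Exonic bases covered by loci (percent) against exonic loci per kb of exon, 1 point for each of the 46 genes, coloured by group. CRP stands at 0.993 loci per kb and 97.5%, ORM1, ORM2 and SAA1 lie above 6 loci per kb and 70%, and the metabolic enzymes lie at or below 7.40%.

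Wide loci were common. Of the 381 loci, 170 were wider than the 50-base bin (44.6%, interval 39.6 to 49.8), against 2039 of 14648 exonic loci of all protein-coding genes (13.9%). A locus of at least 100 bases lay on 32 of the 46 genes, against 5.58% of all protein-coding genes, and a locus of at least 500 bases on 7, against 0.161%. Those 7 were APOB, CRP, SERPINA1, SERPINA3, HP, FGA and FGB. By group, wide loci made up 54.9% of loci in the complement genes and 52.5% in the coagulation genes. In the metabolic enzymes they made up 1 of 21 loci.

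In what follows a gene's loci are counted over all its exons, and covered coding bases are those of the isoform with the longest coding sequence. Where some loci lie outside that coding sequence, the number on it is given as coding loci. Among the apolipoproteins, the proteins that carry lipid in blood, all 5 genes had a locus, with 59 loci and a median of 24.6% of exonic bases covered. APOB encodes the structural protein of low-density lipoprotein and held 49 loci, the 3rd highest number of any protein-coding gene. Its loci covered 36.1% of exonic bases (3.30 per kb) and reached 22 of 29 exons. Exon 26, which alone holds 53.6% of the mRNA, had 24 loci at 3.17 per kb with 37.0% of its bases covered, and the other exons had 25 loci at 3.82 per kb with 39.1% covered. The long exon and the rest of the APOB mRNA thus carried loci at a like density. Exons 2, 6, 10, 15, 19, 22 and 27 had none.

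The widest locus on APOB spanned 500 bases at chr2:21011401-21011900 (minus strand), wholly inside exon 26. The first coding locus lay in exon 3, at chr2:21042351-21042400. Both are shown as coding sequence from GENCODE transcripts on GRCh38, 5′ to 3′, the wide locus by its first 100 bases, so that the RNA under a wide and a narrow pile-up can be seen.
APOB exon 26, first 100 bases of the wide locus: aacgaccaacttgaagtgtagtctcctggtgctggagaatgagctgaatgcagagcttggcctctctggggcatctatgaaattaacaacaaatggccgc
APOB exon 3, coding part of the first locus: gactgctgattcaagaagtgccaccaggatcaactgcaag
No base is in capitals in these lines, because neither holds a start or stop codon.

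The other apolipoproteins were short genes with few loci. APOA1, the main protein of high-density lipoprotein, had 4 loci over 43.5% of its coding bases. APOA2, its partner there, had 2 loci over 57.0%, the widest of 200 bases, and these ran over the stop codon. APOC3, an inhibitor of lipoprotein lipase, had 2 loci over 38.7%. APOH, which binds phospholipid, had 2 loci of 50 bases over 7.80% and was the least covered of the 5.

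The acute phase group, at 15 of 15 genes, was the most completely covered along coding sequence. Its median was 27.3% of exonic bases and 82.0% of coding bases, against a median coding cover of 29.5% over all 46 genes. The group was split, with CRP, HP, ORM1, ORM2, SAA1, SAA2, SERPINA1 and SERPINA3 between 82.0% and 98.4% and the other genes between 3.65% and 45.98%.

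The widest locus on any of the genes spanned 1800 bases at chr1:159712301-159714100 (minus strand) on CRP, a pentraxin that binds phosphocholine on microbes and dead cells. It took in nearly all of exon 2, and a second locus of 200 bases lay on exon 1. Together they covered 94.4% of the coding bases, with both the start and the stop codon. SERPINA1, which encodes the elastase inhibitor alpha-1 antitrypsin, had 8 loci, of which 4 coding loci covered 98.4% of coding bases. The widest, of 650 bases, covered 641 bases of exon 4. SERPINA3, which encodes alpha-1 antichymotrypsin, had 5 loci, of which 4 coding loci covered 95.2%, the widest of 600 bases. Every SERPINA3 locus also lay on exons of the annotated gene AL049839.2 on the same strand, so those reads cannot be told apart. HP encodes haptoglobin, which binds free haemoglobin, and had 7 loci, of which 6 coding loci covered 89.2% of coding bases. The widest, of 950 bases, took in all 905 bases of exon 8.

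ORM1 and ORM2 encode the paired forms of orosomucoid, a plasma glycoprotein that binds basic drugs. Each had 6 loci that reached all 6 exons and covered both the start and the stop codon. Loci lay on 96.7% of the coding bases of ORM1 and on 82.0% of those of ORM2. The coding sequences are 606 bases each, differ at 31 bases and are 94.9% identical. Loci of both genes covered 479 of these positions, which include 24 of the differing bases. The stretch of exon 4 with most differences is shown for both, at chr9:114324801-114324873 for ORM1 and chr9:114331578-114331650 for ORM2 (plus strand), with the differing bases in capitals.
ORM1 exon 4: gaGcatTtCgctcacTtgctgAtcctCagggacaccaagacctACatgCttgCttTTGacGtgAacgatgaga
ORM2 exon 4: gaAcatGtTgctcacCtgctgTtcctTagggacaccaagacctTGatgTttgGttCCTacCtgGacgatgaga
The capitals mark 15 differing bases in a stretch of 73. Elsewhere the pair is closer. Of 6 loci on each gene, 5 on ORM1 and 4 on ORM2 held a run of 22 bases that also occurs in the other gene, and in 2 loci of each gene every such run did. Those 2 are the first and the last locus of each gene, which hold the start and the stop codon. The split of loci between ORM1 and ORM2 is therefore uncertain.

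SAA1 and SAA2 encode the acute serum amyloid A proteins, which replace APOA1 on high-density lipoprotein in inflammation, and SAA4 encodes the constitutive form. SAA1 had 5 loci that reached all 4 exons, and its 3 coding loci covered 92.4% of coding bases. SAA2 had 8 loci, of which 3 coding loci covered 93.0%, and SAA4 had 1 locus of 50 bases with 12.7% covered. The inducible pair was thus covered almost throughout and the constitutive gene over a single bin. SAA1 and SAA2 differ at 11 of 369 coding bases (97.0% identity), and 315 positions were covered in both genes. Part of exon 4 is shown for both, at chr11:18269732-18269831 (plus strand) for SAA1 and chr11:18245401-18245500 (minus strand) for SAA2.
SAA1 exon 4: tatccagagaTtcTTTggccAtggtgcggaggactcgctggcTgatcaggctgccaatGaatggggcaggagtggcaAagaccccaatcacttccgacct
SAA2 exon 4: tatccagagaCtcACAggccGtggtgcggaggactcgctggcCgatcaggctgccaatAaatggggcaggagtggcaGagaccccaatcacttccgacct
Capitals mark the 8 differing bases. All 5 loci of SAA1 and 4 of 8 loci of SAA2 held a run of 22 bases found in another gene, chiefly in each other, and 3 of 8 SAA2 loci and the SAA4 locus also lie on the readthrough gene SAA2-SAA4. The split of loci between SAA1 and SAA2 is therefore uncertain. The SAA1 locus at chr11:18266401-18266450 also lies on the annotated gene RNA5SP334. Every run of 22 bases in that locus occurs in a gene elsewhere, RNA5SP333 and SAA2 among them.

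The inter-alpha-trypsin inhibitor heavy chains, a family of secreted proteins several of which become attached to hyaluronan in the extracellular matrix, differed widely. ITIH4, an acute phase member, had 19 loci over 45.98% of coding bases and reached 18 of 24 exons. ITIH3 had 13 loci, 10 of them coding loci over 27.6%, ITIH2 had 4 over 6.72% and ITIH1 had 2 over 3.65%. ITIH1, ITIH3 and ITIH4 lie side by side on chromosome 3, so neighbours in the genome stood at both ends of this order. All 19 ITIH4 loci also lie on exons of the annotated gene AC006254.1. AMBP, which encodes the light chain bikunin and the carrier alpha-1-microglobulin, had 4 loci over 26.3%.

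A2M, which encodes the broad protease trap alpha-2-macroglobulin, led the group by count with 24 loci. They reached 23 of 36 exons, and 23 coding loci covered 30.9% of coding bases. No locus on it was wider than 100 bases. The first coding locus, which is also one of the widest, lay in exon 2 at chr12:9113401-9113500 (minus strand), as the following coding sequence shows.
A2M exon 2: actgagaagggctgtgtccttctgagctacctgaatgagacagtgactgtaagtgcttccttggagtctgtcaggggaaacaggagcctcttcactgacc
In 3 of its 24 loci a run of 22 bases also occurs in PZP, a close relative of A2M.

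In the coagulation group 8 of 9 genes had a locus, with 59 loci and a median of 29.6% of exonic bases covered. The 3 fibrinogen genes, whose chains assemble into the precursor of fibrin, lie together on chromosome 4 and stood out in coverage. FGB had 9 loci, with 8 coding loci over 93.2% of coding bases. FGA had 9, with 8 coding loci over 84.5%, and FGG had 11, with 9 coding loci over 70.5%. Every exon of all 3 genes had a locus. The widest, of 1600 bases at chr4:154585301-154586900 (minus strand), covered 1363 of the 1381 bases of exon 5 of FGA and ran beyond that exon. The first coding locus of FGG covered the start of translation in exon 1, at chr4:154612551-154612609. The widest FGG locus spanned 300 bases and took in all 278 bases of exon 8. The coding part of the first locus and the first 100 coding bases of the widest (chr4:154606883-154606982) are shown. Both are on the minus strand, with the start codon in capitals.
FGG exon 1, coding part: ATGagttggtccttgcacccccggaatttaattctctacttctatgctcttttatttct
FGG exon 8: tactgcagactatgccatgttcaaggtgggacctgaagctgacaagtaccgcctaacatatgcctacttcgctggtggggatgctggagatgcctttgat

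VTN encodes vitronectin, an adhesive protein that also stabilises the plasminogen activator inhibitor. It had 8 loci over 51.9% of coding bases and reached all 8 exons. SERPINC1, which encodes antithrombin, had 6 loci over 34.6%. The genes for circulating zymogens and for kininogen had narrow loci alone. F2 (prothrombin) had 5 loci over 12.8% of coding bases, PLG (plasminogen) 6 with 5 coding loci over 9.95%, and KNG1 (kininogen) 5 with 4 coding loci over 8.48%, each of 50 bases. HRG, which lies between AHSG and KNG1 on chromosome 3, had none.

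All 5 complement genes had a locus, with 71 loci and a median of 16.6% of exonic bases covered. C3, the protein on which the complement pathways converge, held 39 loci, the 5th highest number of any protein-coding gene. They covered 76.6% of coding bases and reached 40 of 41 exons, all but exon 33 of 52 bases. Only 10 of its loci were 50 bases wide, and the widest were 250. C5, which has the same domain plan and a coding sequence of like length (5031 bases, against 4992 for C3), had 8 loci of 50 bases over 7.06% of coding bases and reached 8 of 41 exons. The start of the C3 coding sequence (chr19:6720516-6720589) and the first 100 covered bases of exon 13 (chr19:6710746-6710845), an exon covered throughout, are shown on the minus strand with the start codon in capitals.
C3 exon 1, coding part: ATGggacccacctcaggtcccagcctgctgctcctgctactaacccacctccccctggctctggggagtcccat
C3 exon 13: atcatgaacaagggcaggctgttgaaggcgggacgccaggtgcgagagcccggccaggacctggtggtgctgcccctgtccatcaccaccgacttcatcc

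CFB encodes factor B, the protease of the alternative pathway, and had 12 loci, of which 11 coding loci covered 43.4% of coding bases. Of the 12, 11 also lie on the annotated gene AL645922.1, which leaves 1 on CFB alone. The pore-forming components were sparser. C9 had 8 loci, with 6 coding loci over 21.0% of coding bases, and C8A had 4, with 3 coding loci over 8.55%. C9 also had 6 loci in introns, the most of the 46 genes.

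Of the 8 transport genes 7 had a locus, with 57 loci and a median of 14.9% of exonic bases covered. CP, which encodes the copper-carrying ferroxidase ceruloplasmin, led with 16 loci. Its 12 coding loci covered 28.1% of coding bases, and the other 4 lay in the 3' untranslated region. HPX, which encodes the haem scavenger hemopexin, had 9 loci but the greatest cover of the group, 56.6%, with a locus of 350 bases at its last exon. ALB, which encodes albumin, the most abundant plasma protein, had 8 loci, with 7 coding loci over 27.3%. Those of ALB were 50 to 150 bases wide, and its exons 4, 7, 8, 9, 11, 12, 13 and 15 were reached. GC, the vitamin D carrier, had 7 loci over 31.8%, and TF, the iron carrier transferrin, had 8 over 19.7%. For TF the share of all exonic bases was 1.82%, because its annotated exons add up to 26199 bases. A1BG, a plasma glycoprotein of the immunoglobulin superfamily, had 6 loci, with 5 coding loci over 14.0% of coding bases, and all 6 are also on the annotated gene AC012313.3. AHSG, the mineral-binding fetuin-A, had 3 loci, with 2 coding loci over 16.3%.

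For CP the coding part of the first locus (exon 1, chr3:149221651-149221700) and the first 100 bases of the single locus with most coding bases, 140 (exon 4, chr3:149209251-149209350) are given on the minus strand.
CP exon 1: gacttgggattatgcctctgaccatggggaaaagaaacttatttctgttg
CP exon 4: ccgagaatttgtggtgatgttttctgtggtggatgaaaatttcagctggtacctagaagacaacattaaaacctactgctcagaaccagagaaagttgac
In 3 of the 16 CP loci a run of 22 bases also occurs in the annotated gene AC104966.1.

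The metabolic enzymes were the sparsest group. Of 4 genes 3 had a locus, with 21 loci and a median of 3.41% of exonic bases and 12.4% of coding bases covered. TAT, which encodes tyrosine aminotransferase, had 8 loci, all of 50 bases, and its 5 coding loci covered 18.3% of coding bases. CYP2E1, the ethanol-metabolising cytochrome, had 7 with 6 coding loci over 23.3%, and CPS1, which catalyses the entry step of the urea cycle in mitochondria, had 6 over 6.48%. The coding locus of TAT nearest the start lay in exon 2 at chr16:71576301-71576350 (minus strand).
TAT exon 2: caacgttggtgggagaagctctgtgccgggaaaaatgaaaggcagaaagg
CYP3A4, like CYP2E1 a cytochrome of the hepatocyte endoplasmic reticulum, had none.

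Loci on these genes followed the messenger RNA. Of exonic loci, 381 were same-strand and 7 opposite (98.2% same-strand, interval 96.3 to 99.3), against 14648 and 3223 for all protein-coding genes (82.0%, 81.4 to 82.5). The 7 opposite loci lay on 6 genes, 2 on TF and 1 each on A2M, KNG1, C3, C9 and TAT. That is 6 of 46 genes with an opposite-strand exonic locus, against 14.7% of all protein-coding genes, so the share of genes was near the background. In introns the strands were nearly even, with 22 same-strand and 18 opposite loci (55.0% same-strand, 38.5 to 70.7), against 22398 and 19051 for all protein-coding genes (54.0%). A same-strand intronic locus was found on 13 of 46 genes, against 41.6% of all protein-coding genes, and an opposite-strand one on 12, against 38.7%. Counts on these genes were thus above the background in exons and below it in introns. Intron length was not taken into account.

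Within the mRNA, loci lay mainly in coding sequence. Of the 373 loci on the isoform with the longest coding sequence, 325 had their midpoint in coding sequence (87.1%, interval 83.3 to 90.4), 35 in the 3' untranslated region (9.38%) and 13 in the 5' untranslated region (3.49%). For all protein-coding genes the shares were 60.6% coding, 23.3% in the 3' and 16.0% in the 5' untranslated region. Of coding bases, 34.6% were covered in the liver plasma protein genes, and of 3' and 5' untranslated bases 12.6% and 13.3%. In all protein-coding genes 1.37% of coding bases and 0.668% and 2.26% of 3' and 5' untranslated bases were covered. Coding sequence was therefore the most covered part in the liver plasma protein genes, and the 5' untranslated region in all protein-coding genes.

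Along the mRNA the loci were spread nearly evenly. The first 10% of the mRNA length held 10.7% of them (interval 7.77 to 14.3), against 20.3% (19.7 to 21.0) of the loci of all protein-coding genes. The last 10% held 6.70% (4.38 to 9.74), against 5.71%. In all, 198 of 373 loci lay in the first 50% of the length (53.1%, 47.9 to 58.2), against 61.5% (60.6 to 62.3). With APOB left out the share was 52.8%.

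**Figure D4:**
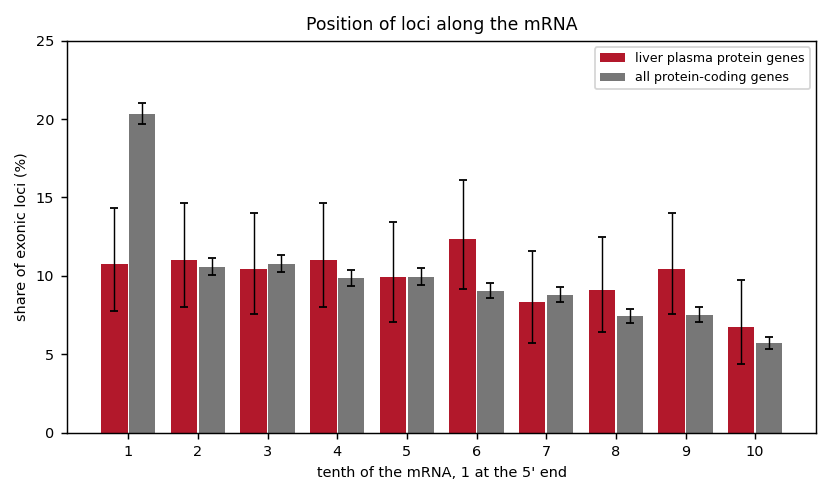
Share of exonic loci (percent) in each of 10 equal parts of the mRNA from the 5' end, for the liver plasma protein genes and for all protein-coding genes, with exact 95% intervals as bars. The first part holds 10.7% in the liver plasma protein genes and 20.3% in all protein-coding genes, and the other parts lie between 5.71% and 12.3% in both.

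In the liver plasma protein genes, loci reached the stop codon more often than the start codon. A locus covered the start codon in 12 of the 43 genes with a locus, against 550 of 7114 for all protein-coding genes (27.9% and 7.73%), and the stop codon in 22 of 43, against 295 of 7114 (51.2% and 4.15%). Over all genes, with or without a locus, these shares were 2.76% for the start and 1.48% for the stop codon. Both codons were covered in 10 genes: C3, CRP, FGA, FGG, ITIH4, ORM1, ORM2, SAA1, SERPINA1 and VTN. This compares with 0.306% of all protein-coding genes. Every exon of the isoform had a locus in 10 genes, against 0.565% of all protein-coding genes with 2 or more exons. The 10 were CRP, FGA, FGB, FGG, ORM1, ORM2, SAA1, SAA2, SERPINA3 and VTN. At 23 of 567 exon junctions (4.06%) loci covered the bases on both sides, against 111 of 189489 (0.0586%) in all protein-coding genes, and 6 of the 23 were in C3. These shares were read without regard to how much of each gene is covered, which is far more in the liver plasma protein genes.

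**Figure D5:**
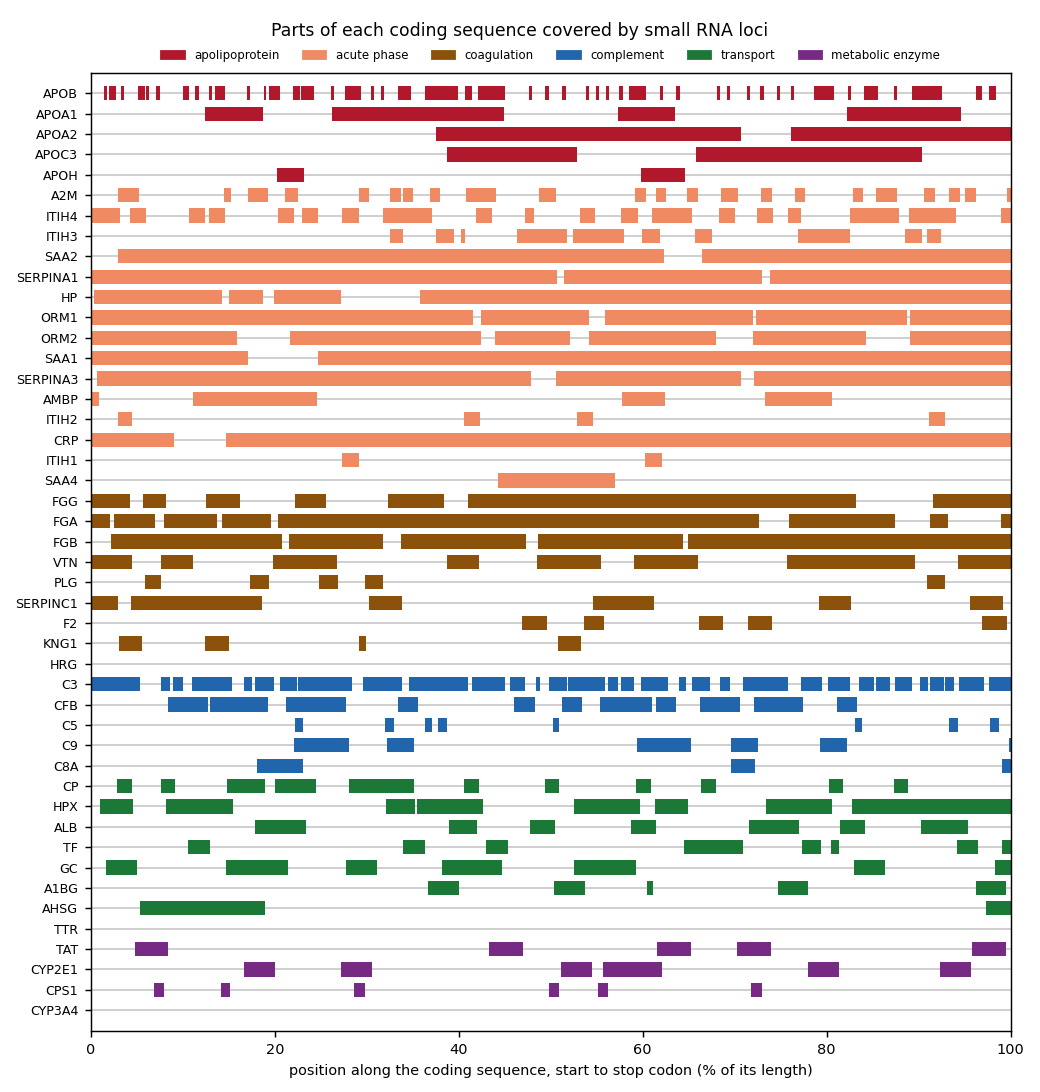
Coding sequence of each of the 46 genes from start to stop codon (percent of its length), with the parts covered by loci filled and coloured by group. CRP, SERPINA1, SERPINA3, ORM1, FGB, SAA1 and SAA2 are filled almost throughout (92.4% to 98.4%), C3 is filled in short blocks (76.6%), APOB in scattered narrow blocks (37.3%), and HRG, TTR and CYP3A4 are empty.

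Most loci held no sequence shared with genes elsewhere in the genome. Of 379 loci with at least 22 exonic bases, 341 held no run of 22 bases found in transcripts of a gene elsewhere, and 42 genes had at least 1 such locus. Shared runs occurred in 38 loci of 12 genes, and in 8 loci every run was shared. HP had shared runs in 6 of 7 loci, all with HPR, the haptoglobin-related gene, so the split between HP and HPR is uncertain. This search leaves out genes that overlap in the genome. On that count, 48 of the 381 loci, on 9 genes, lay on a same-strand exon of another annotated gene. With such loci left out, 39 of the 46 genes had a locus, against 33.2% of all protein-coding genes. The search for shared runs was made on the loci of the 46 genes alone, so its counts have no background beside them.

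Other genes of the same plasma systems and of the liver, with receptors and regulators that act on them, were covered less evenly. Of 127 such genes on 8 lists, 80 had an exonic locus (63.0%, interval 54.0 to 71.4), against 35.7% of all protein-coding genes, with a median of 1.90% of exonic bases covered. Other acute phase genes had 9 of 10, led by count by LBP, the lipopolysaccharide-binding protein, with 12 loci over 41.5% of exonic bases. SERPING1, the C1 inhibitor, followed with 8 over 42.8%. HPR had 2 loci and the greatest cover of the list, 49.3%. Of other complement genes 18 of 21 had a locus, with 28 on C4B and 27 on C4A, near-identical copies between which the split is uncertain, and 10 on C1S. Other coagulation genes had 12 of 19, with at most 5 loci on a gene (SERPINF2, the plasmin inhibitor). F3, F7, F8, F11, F13B, PROZ and SERPIND1 had none.

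Other apolipoproteins had 7 of 12, led by CLU (7 loci), APOD (5), APOC2 (3) and APOE (3). APOE had the greatest cover of the list, 42.9% of exonic bases, and APOA4, APOA5, APOC4, APOM and LPA had none. Other transport genes had 4 of 12, a share of 33.3% that is near the background. RBP4, the retinol carrier that travels with TTR, had 7 loci over 27.1% of exonic bases, whereas AFP, AFM, SHBG and SERPINA7 were among 8 genes with none. Other liver enzymes had 11 of 27 (40.7%), also near the background. PCK1 of gluconeogenesis held 10 loci and ARG1 of the urea cycle 6, while CYP1A2, CYP2C8, CYP2C19, CYP2D6, CYP3A5, CYP4A11 and CYP7A1 were among those with none. BAAT and SDS had 4 each, and CYP8B1, which acts in bile acid synthesis, had 3.

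Marker genes of other tissues give a scale for these counts. An exonic locus lay on 10 of 10 breast epithelium genes, 10 of 10 skeletal muscle genes, 9 of 10 stroma and endothelium genes, 7 of 10 immune and blood genes and 0 of 10 neuron genes, against 35.7% of all protein-coding genes. The median cover of exonic bases was 21.95% for skeletal muscle, 12.4% for stroma and endothelium, 8.80% for breast epithelium, 6.78% for immune and blood and 0 for neuron genes, beside 18.2% for the liver plasma protein genes. The part of any of these tissues in the loci on liver plasma protein genes was not tested.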

How the data were processed

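The authors deposited 1 list of loci in BED form for the whole series, on hg38. Its deposited score column is 1 in every row, so it ranks nothing. The submitters' processing notes name cutadapt, Bowtie2 2.2.8, SAMtools and bedtools. Piranha and collapsing are named by the list alone, and its threshold, samples, depth and any control were not given in the sources used here. All loci end on a 50-base grid, so a locus can reach beyond its RNA. It has 0 columns for single libraries, so the edgeR test of knockdown foreseen for such columns was not run.

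Loci were matched to GENCODE 29 exons (union over all transcripts) on the same strand by at least 1 base, and positions are counted from 1. Coding values use the isoform with the longest coding sequence. Its sequence was read from the GENCODE transcript file on GRCh38. No protein table was used, so coding DNA is shown where protein stretches had been planned. The 46 genes and all lists were chosen with earlier results of these data known, and no test was run on them. Genes are named by a written rule: up to 4 per group with most loci, all paralogs, all without a locus, and up to 3 leaders per list. Others among the 46, the list genes without a locus and some further list genes were named after their values were seen. The further genes include APOE, HPR, BAAT and CYP8B1. Counting was tested on simulated data, where 200 of 200 genes gave the planted number of loci, which for some genes was none. The planted exonic loci were 50 bases wide and lay wholly inside exons of genes overlapping no other protein-coding gene on their strand. Wide loci, partial overlap and shared exons were not tried. Alternatives were a 50% overlap, loci wholly inside exons, loci of at most 50 bases, strand ignored, loci on other genes left out, a single isoform, merging within 50 bases and, added after seeing the data, coding bases only. Python 3.11.15, numpy 2.4.6, scipy 1.17.1 and matplotlib 3.10.9 were used.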

Additional observations from a re-analysis of the deposited data

How the results depend on the processing

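A locus was found on 43 of 46 genes in the main count and with at least 50% overlap, loci wholly inside exons, strand ignored, a single isoform, merging and coding bases only. The share of all protein-coding genes was 35.7% in the main count, 34%, 30.7%, 43.8%, 31.3%, 35.7% and 20.3% under these settings in that order. A locus was found on 40 of the 46 with loci of at most 50 bases, without APOA2, CRP and ORM1, whose loci are all wider, against 34.2% of all protein-coding genes. With loci on exons of another gene left out it was 39, without A1BG, ITIH4, SAA4 and SERPINA3, against 33.2%. The same-strand share of exonic loci, the place along the mRNA and the counts of the 8 lists stayed within their interval or within 1.5 times under the alternatives run for them. Median loci per kb moved by over 1.5 times, since these settings count fewer loci or a shorter length. With loci wholly inside exons it was 1.27 over all 46 genes, 1.15 for apolipoproteins and 1.26 for acute phase genes. With loci of at most 50 bases it was 1.11 for all 46, 1.40 for apolipoproteins, 1.18 for acute phase, 0.940 for coagulation, 1.22 for complement and 0.995 for transport genes. With a single isoform it was 3.20 for all 46, 3.99 for acute phase, 3.45 for transport and 1.53 for metabolic enzyme genes. On coding bases it was 3.75 for all 46, 4.98 for apolipoproteins, 3.78 for acute phase, 3.78 for transport and 2.50 for metabolic enzymes. The median covered share moved likewise. With loci wholly inside exons it was 10.4% for all 46, 11.1% for acute phase and 14.8% for coagulation genes. With loci of at most 50 bases it was 5.07% for all 46, 6.08% for apolipoproteins, 5.65% for acute phase, 4.58% for coagulation, 5.43% for complement and 4.69% for transport genes. With loci on other genes left out it was 9.93% for complement genes. With a single isoform it was 27.9% for all 46, 47.6% for acute phase, 23.02% for transport and 7.59% for metabolic enzymes. On coding bases it was 29.5% for all 46, 38.7% for apolipoproteins, 82.0% for acute phase, 23.5% for transport and 12.4% for metabolic enzymes. No paired analysis was possible because the list has no columns for single libraries. Depth is unknown, so a gene without a locus is not shown to lack small RNA.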

Other observations

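The genes that act on the liver plasma proteins, or switch them on, had less of their exons covered than the liver plasma protein genes. Their cover was still above that of all protein-coding genes. Over the whole length of their exons, 2.67% of bases were covered in receptors and lipoprotein assembly genes and 3.20% in regulators. The same share was 18.9% in the liver plasma protein genes and 0.873% in all protein-coding genes, whose median was 0. Of 16 receptors and lipoprotein assembly genes 10 had an exonic locus (62.5%, interval 35.4 to 84.8), with a median of 1.33% of exonic bases covered. The share over all protein-coding genes, 35.7%, lies within that interval. LRP1, which clears complexes of alpha-2-macroglobulin with proteases, had 17 loci, LRP2 had 12, and the transferrin receptor gene TFRC had 9. MTTP, which loads lipid onto the APOB protein, had none. Among 10 regulators of the acute phase response 9 had a locus (interval 55.5 to 99.7), against the same 35.7%, with a median of 2.07% covered. The median exon length of both lists fell between 4 and 8 kb, where 40.5% of all protein-coding genes had a locus. STAT3, the transcription factor downstream of interleukin-6, had 11 loci, the receptor subunit gene IL6ST 8 and CEBPB 3, and the interleukin-1 receptor gene IL1R1 had none.

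Base composition was compared inside the coding sequences. Pooled over genes, covered coding bases of the liver plasma protein genes were 50.7% G or C and their other coding bases 48.2%. In all protein-coding genes the value was 52.3% for both. Pooled values also depend on which genes are more covered. C3 gave 3826 covered and 1166 other bases, and C5, poorer in G and C, gave 355 and 4676. Of 25 genes with at least 200 bases of each kind, the covered part was richer in G and C in 18 and poorer in 7. The same tally was not made over all protein-coding genes, so these counts have no background beside them. The genes with the most complete coding cover, such as CRP, ORM1, SERPINA1 and SERPINA3, have too few other bases to enter it. In C3 the values were 57.2% covered and 53.8% other, and in APOB 44.6% and 42.6%. Among the 7 that went the other way, F2 had 55.0% and 59.7%, and TF 48.3% and 51.8%.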
